A study of Mus musculus with 11 samples.

Results

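The Slit family of secreted guidance ligands and the Robo family of their receptors were described in leptin receptor lineage stromal cells of mouse marrow. The 7 genes Slit1, Slit2, Slit3, Robo1, Robo2, Robo3 and Robo4 were taken by gene symbol out of the 24718 genes of the count table. The family was selected on measured values, namely the counts of Slit2 and Robo1, which had passed the test between mice given repeated doxorubicin and mice given saline. In that comparison the members' differences are therefore given with their errors and without p-values. Which members passed the threshold is stated only as the ground of the choice, and for the alternatives to show what that choice depended on. Slit1 did not pass the filter on low counts, which left 6 of the 7 among the 17838 genes tested.

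Doxorubicin is an anthracycline used against cancer that stops topoisomerase II on DNA and so breaks it. The DOX4X group was 4 mice that received 4 intravenous injections at 5 mg/kg, each 1 week after the last, starting at an age of 8 to 10 weeks. The DOX1X group was 3 mice, labelled as young adults, that received 1 intravenous injection at 10 mg/kg. The PBS group was 4 mice that received 4 intravenous injections of phosphate-buffered saline, with no age given in the label. All 11 mice were female and carried Lepr-Cre;LSL-tdTomato+/-, and bone marrow was taken 8 weeks after treatment. In this model Cre is made where the leptin receptor gene is active and switches on the red reporter for good, so the sorted tdTomato+ cells also include descendants of leptin receptor-expressing cells. The 2 doxorubicin schedules differ in number of injections, dose and possibly age together, so these cannot be told apart.

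Slit proteins are large secreted ligands with leucine-rich repeats, first known for repelling axons at the midline of the nervous system. They bind the immunoglobulin domains of Robo receptors, with heparan sulfate as a cofactor, and the Robo tail recruits GTPase-activating proteins and actin regulators. In bone and marrow, Slit2 and Slit3 have been studied as signals to osteoblasts, osteoclasts, vessels and blood stem cells. Robo4 is the family member made chiefly by endothelial cells.

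Each library is the RNA of 1 mouse. The tables held 31129352 to 36888310 counts per library in DOX4X, 33496356 to 42002065 in DOX1X and 29540422 to 42784036 in PBS. Stromal identity was checked with 10 markers, all of them detected, including the leptin receptor gene Lepr, the chemokine gene Cxcl12 and the stem cell factor gene Kitl. Their summed level was 61503 to 72306 CPM (counts scaled to library size) in DOX4X, 61025 to 77012 in DOX1X and 67344 to 77377 in PBS. The column names carry identifiers read here as 2 flow cells, the glass slides on which libraries are sequenced. Flow cell 2 held DOX4X 1 to 4 and DOX1X 3, and flow cell 1 held DOX1X 1 and 2 and PBS 1 to 4, so flow cell and treatment coincide wholly between DOX4X and PBS. A flow cell term in that contrast rests on the split of the DOX1X libraries alone. The title of PBS 4 names doxorubicin while its treatment label and library name give the control, so the differences and counts that moved most without this library are also given without it.

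The genes encoding the ligands that lead the family here, Slit2 and Slit3, each carry a copy of the same microRNA gene inside an intron, shown because transcription of the host and of the microRNA can be linked. The mature sequence is printed with its seed, bases 2 to 8, in capitals. It comes from RefSeq with positions on GRCm38.p6, a build other than the GRCm39 used by the authors.
miR-218-5p: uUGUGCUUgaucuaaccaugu
Mir218-1 places these 21 bases at chr5:48223966-48223986 on the plus strand, in intron 16 of the 38 introns of Slit2. Mir218-2 places them at chr11:35616840-35616860 on the plus strand, in intron 14 of the 35 introns of Slit3. Poly(A) libraries of this kind do not measure the mature microRNA, so no level is given. The reverse complement of the seed, AAGCACA, was searched on the sense strand of the longest annotated 3′ untranslated region of each gene. It occurred once in Robo1 and 2 times in Robo2, both of which are known as miR-218 targets, 2 times in Slit2 and once in Robo3. It did not occur in these windows of Slit1, Slit3 or Robo4, and 14.8% of 21166 genes had a match. The matches in the receptors Robo1 and Robo2 are printed with the match in capitals.
Robo1: ttttttggttttaaAAGCACAa
Robo2 first: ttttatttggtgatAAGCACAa
Robo2 second: gtcacggcagacccAAGCACAg
A match of this kind describes the letters of the window and is not a measured site.

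Because the levels of the 4 highest members differed between groups in different ways, the 250 bases before a start site of each are shown. They are RefSeq sequences on GRCm38.p6, where 6 of the 7 members had an entry. Capitals mark GGGCGG, the GC box bound by Sp1-type factors, or its complement CCGCCC, and TATAAA, the TATA box.
Slit2: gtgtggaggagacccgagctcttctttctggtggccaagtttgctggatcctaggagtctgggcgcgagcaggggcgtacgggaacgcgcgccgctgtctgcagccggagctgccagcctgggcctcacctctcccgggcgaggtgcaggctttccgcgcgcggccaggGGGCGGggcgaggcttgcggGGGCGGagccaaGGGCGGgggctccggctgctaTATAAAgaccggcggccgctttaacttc
Slit3: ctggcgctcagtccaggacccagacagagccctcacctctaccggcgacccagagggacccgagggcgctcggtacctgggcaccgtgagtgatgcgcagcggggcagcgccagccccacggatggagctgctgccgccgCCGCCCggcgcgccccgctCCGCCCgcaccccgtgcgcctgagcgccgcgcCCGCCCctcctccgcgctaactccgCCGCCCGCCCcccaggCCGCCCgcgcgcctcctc
Robo1: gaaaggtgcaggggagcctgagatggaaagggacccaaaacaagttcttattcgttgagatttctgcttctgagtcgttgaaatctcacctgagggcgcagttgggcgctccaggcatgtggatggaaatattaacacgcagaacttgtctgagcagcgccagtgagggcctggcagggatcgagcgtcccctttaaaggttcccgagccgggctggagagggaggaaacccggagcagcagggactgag
Robo4: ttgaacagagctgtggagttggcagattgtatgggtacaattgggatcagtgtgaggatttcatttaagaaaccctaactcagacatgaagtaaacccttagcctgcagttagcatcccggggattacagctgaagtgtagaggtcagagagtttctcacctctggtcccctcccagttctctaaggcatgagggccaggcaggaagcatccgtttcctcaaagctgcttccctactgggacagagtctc
The Slit2 window is chr5:47982905-47983154 on the plus strand, the Slit3 window chr11:35121206-35121455 on the plus strand, the Robo1 window chr16:72662899-72663148 on the plus strand and the Robo4 window chr9:37401722-37401971 on the plus strand. The windows of the ligand genes were rich in G and C, at 69.6% with 25 CpG dinucleotides for Slit2 and 78.8% with 35 CpG for Slit3. The Robo1 window had 56.0% and 11 CpG, and Robo4 had 49.6% and 2 CpG. The windows end at RefSeq start sites, and each reaches into the gene as annotated in GENCODE. The Robo1 window lies wholly inside the gene, which starts at chr16:72308306, and the bases before that first start were not examined. Slit3 starts at chr11:35121224, near the beginning of its window, so most of that window lies inside the annotated gene. Robo4 starts at chr9:37401897 and Slit2 at chr5:47983138, so the last part of their windows lies inside as well. Over the 32851 promoters of the table the medians were 52.4% and 6 CpG, so the Slit windows lay above them and the Robo4 window below. Searched on both strands, the GC box occurred 3 times in Slit2 and 6 times in Slit3, including one overlapping pair in Slit3, and was not found in the windows of Robo1 and Robo4. It was present in 32.7% of all promoters, and TATAAA, found 1 time in Slit2, in 12.4%. TGTGGT, a core letter pattern of Runx factors, was found in none of the members' windows and in 14.0% of all promoters.

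The genome also groups the receptors in pairs. Robo1 and Robo2 lie tail to tail on chromosome 16 with 845.7 kb and no protein-coding gene between them, and Robo3 and Robo4 lie tail to tail on chromosome 9 with 0.6 kb between their ends (GENCODE, GRCm38). No annotated gene overlapped an exon of any member, although the kit does not mark strand and Slit2 and Slit3 hold other transcripts within introns.

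Levels between genes were compared as CPM per kb of the transcript with the longest coding sequence. In DOX4X the order was Slit3 at 34.2, Slit2 at 13.0, Robo4 at 8.21, Robo1 at 4.50 and Robo2 at 0.604. In DOX1X it was Slit3 at 36.6, Slit2 at 17.2, Robo1 at 5.60, Robo4 at 2.48 and Robo2 at 0.738. In PBS it was Slit3 at 43.7 ± 9.63, Slit2 at 27.0 ± 7.13, Robo1 at 6.87 ± 0.473, Robo4 at 4.10 ± 2.84 and Robo2 at 0.802 ± 0.215 (SD, n = 4). Slit2 and Slit3 thus stood above every receptor gene in each group on this scale, and Robo4 and Robo1 changed places between groups. In PBS the values of Robo1 and Robo4 did not differ beyond the spread of Robo4. Robo3 and Slit1 were at the bottom, at 0.0580 ± 0.0610 and 0.0352 ± 0.0314 in PBS, and did not differ from each other beyond their spread. With the length of all exons together, Slit2 was at 8.26 and Slit3 at 37.7 in PBS, and Robo4 at 3.00 stood above Robo1 at 2.75. On that scale Robo4 at 6.0 also stood above Slit2 at 3.99 in DOX4X, so the place of Slit2 above the receptors depended on the transcript model, while Slit3 stood highest on both scales.

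**Figure D1:**
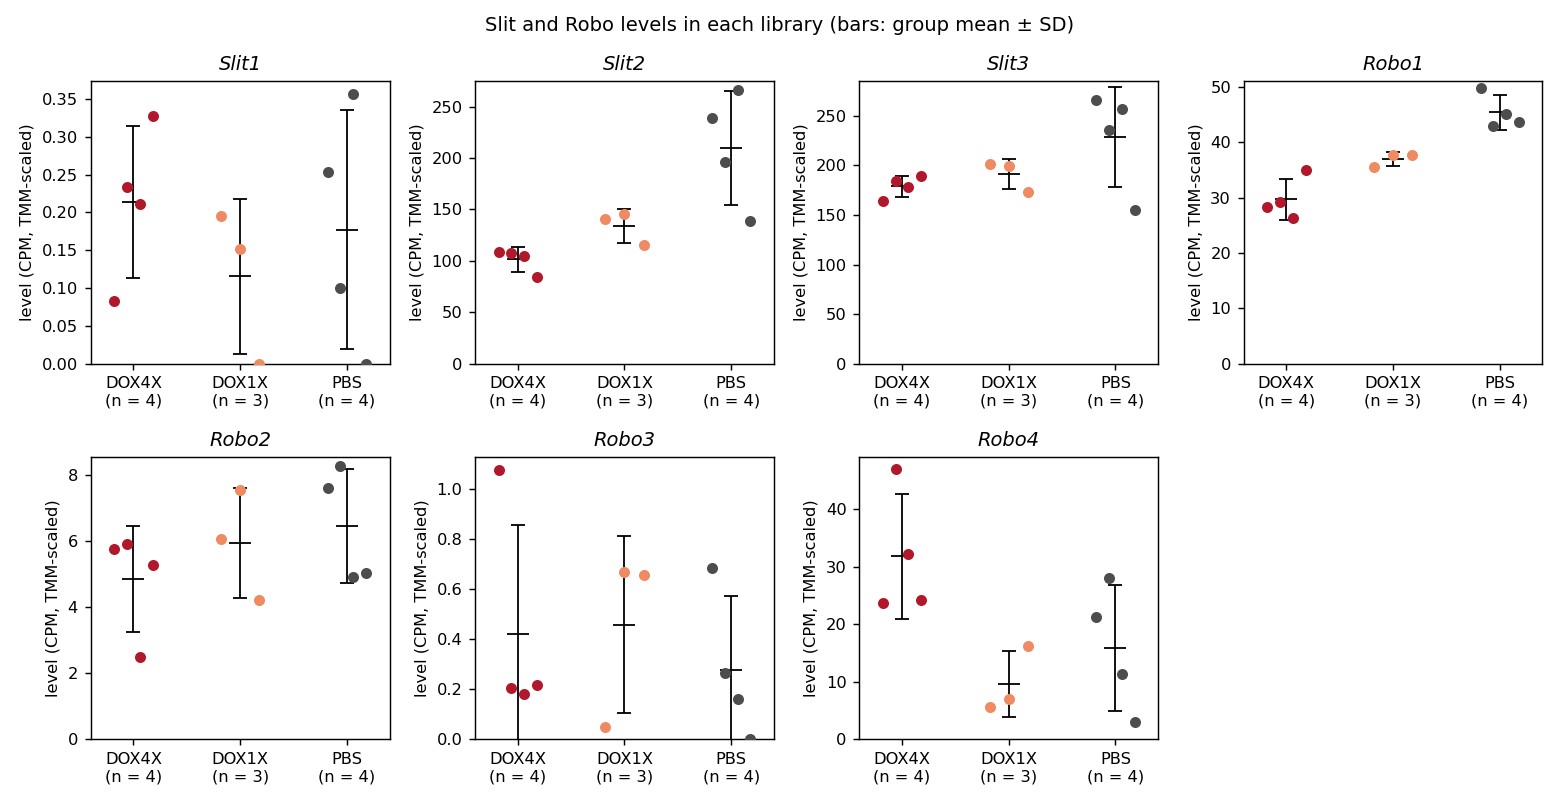
CPM of the 7 Slit and Robo genes in each of the 11 libraries, on a linear axis of its own for each gene, with DOX4X left, DOX1X in the middle and PBS right; points are single mice, horizontal marks are means and vertical lines are SD, with axes that start at 0. Slit2 in DOX4X lies at 84.0 to 109 CPM, below all PBS libraries at 139 to 266, and Robo4 reaches 47.0 in DOX4X 2 and 2.97 in PBS 4.

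Slit2, the ligand most studied for axon repulsion and vessel growth, had 109, 108, 105 and 84.0 CPM in DOX4X, 141, 145 and 115 CPM in DOX1X, and 239, 196, 266 and 139 CPM in PBS. Every DOX4X library was below every library of the other groups, and DOX1X overlapped PBS only through PBS 4, the lowest PBS library. The means were 101 ± 11.8 in DOX4X (SD, n = 4), 134 ± 16.2 in DOX1X (n = 3) and 210 ± 55.5 in PBS (n = 4). The PBS group therefore carried most of the spread, and PBS 4 much of that.

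Slit3, a ligand that has been linked to bone formation and to vessels of bone, had 164, 184, 178 and 189 CPM in DOX4X, 201, 199 and 174 CPM in DOX1X, and 266, 236, 257 and 155 CPM in PBS. DOX4X and DOX1X overlapped, and PBS 4 lay below all of the doxorubicin libraries while PBS 1 to 3 lay above all of them. The means were 179 ± 10.7 in DOX4X, 191 ± 15.4 in DOX1X and 229 ± 50.3 in PBS.

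Slit1, a ligand known mainly from the nervous system, was at the limit of detection. It had 3, 8, 7 and 12 counts in DOX4X, 8, 5 and 0 in DOX1X and 10, 3, 11 and 0 in PBS. The limit that a count of 0 allows, 3 counts, lies at 0.0734 to 0.10 CPM in these libraries, so no difference was detectable at this depth. Such limits cover counting error only.

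Robo1, the receptor that binds Slit2 and Slit3 in many cell types, had 28.2, 29.3, 26.4 and 34.9 CPM in DOX4X, 35.6, 37.7 and 37.6 CPM in DOX1X, and 49.9, 42.9, 45.1 and 43.6 CPM in PBS. The 3 groups did not overlap at all, with DOX4X lowest and PBS highest, although the DOX4X 4 and DOX1X 1 values stood next to each other. The means were 29.7 ± 3.68 in DOX4X, 37.0 ± 1.23 in DOX1X and 45.4 ± 3.12 in PBS. For Robo1, PBS 4 lay within the other PBS libraries.

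Robo2, a receptor best known from neurons and the developing kidney, had 5.78, 5.91, 2.50 and 5.29 CPM in DOX4X, 6.07, 7.55 and 4.23 CPM in DOX1X, and 7.61, 8.28, 4.92 and 5.04 CPM in PBS. All groups overlapped. Robo3, a divergent receptor of commissural neurons, had 39, 7, 6 and 8 counts in DOX4X, 2, 22 and 25 in DOX1X, and 27, 8, 5 and 0 in PBS. These are at most about 1 CPM, and each group held both low and high libraries.

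Robo4, the endothelial receptor that stabilises vessels, had 23.7, 47.0, 32.3 and 24.3 CPM in DOX4X, 5.60, 7.03 and 16.2 CPM in DOX1X, and 21.3, 28.0, 11.3 and 2.97 CPM in PBS. Every DOX4X library was above every DOX1X library, and PBS spanned a range that overlapped both. The means were 31.8 ± 10.8 in DOX4X, 9.62 ± 5.76 in DOX1X and 15.9 in PBS, the group with the widest range. In bulk RNA, fewer cells of a type and less RNA per cell cannot be told apart, which holds for every member.

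The first comparison, DOX4X against PBS, asks what repeated doxorubicin leaves in these cells after 8 weeks, and it is the one that chose the family. On the log2 scale, Slit2 was lower in DOX4X by a difference of -1.05 (SE 0.18), Robo1 by -0.61 (SE 0.09) and Slit3 by -0.35 (SE 0.14). Robo2 differed by -0.41 (SE 0.30), Robo3 by 0.55 (SE 0.96) and Robo4 by 1.00 (SE 0.54). Of the 6 members tested, Slit2 and Robo1 had an adjusted p under 0.05 by edgeR's quasi-likelihood test, where 0.146% of the 17838 genes did, all 26 of them lower. With DESeq2 178 genes were called higher and 412 lower, and without PBS 4 edgeR called 7 higher and 73 lower, so the one-sided split depended on the tool and on that library. Nothing is read from that count, since it is what chose the family. Slit2 and Robo1 were also the members whose groups did not overlap, with DOX4X lower, as were 4.68% of all genes tested. No member was higher in DOX4X without overlap, against 3.17% of all genes.

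The calls of Slit2 and Robo1 rested on which libraries entered, while their direction did not. A kept direction carries no weight here, since the genes were chosen as lower in this contrast and the alternatives reuse its libraries. Leaving out PBS 4 gave 3 called members, with Slit3 at -0.50 (SE 0.08) as the added one, Slit2 at -1.20 and Robo1 at -0.63. Both calls also held without DOX1X 3, and Robo1 alone held without DOX4X 4. Leaving out any one of PBS 1, PBS 2, PBS 3, DOX1X 1, DOX1X 2, DOX4X 1, DOX4X 2 or DOX4X 3 left 0 called members. Across all alternatives Slit2 ranged over -1.23 to -0.74 and Robo1 over -0.70 to -0.55. With flow cell as a term, Slit2 was at -0.74 (SE 0.34) and Robo1 at -0.65 (SE 0.19), with 0 members called, and Slit3 was at -0.15 (SE 0.28). Leaving out single libraries moved Robo4 over 0.65 (without PBS 4) to 1.42 (without PBS 2). Robo4 and Robo2 turned in the fit with flow cell as a term, to -0.36 (SE 1.00) and 0.28 (SE 0.57), with errors larger than the values.

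**Figure D2:**
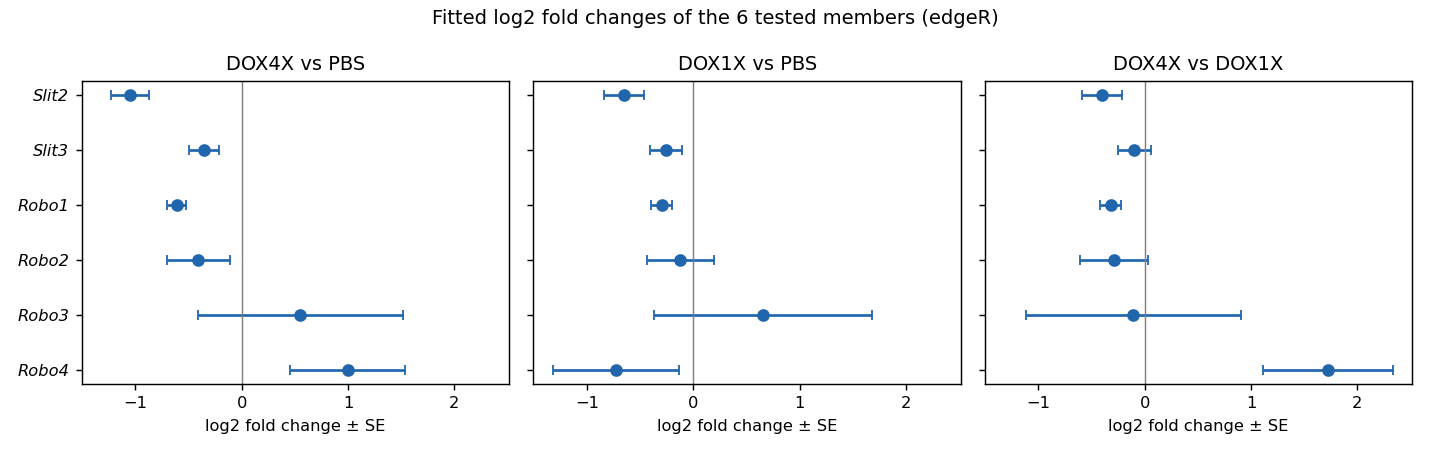
Log2 fold changes of the 6 tested Slit and Robo genes in each comparison (DOX4X over PBS, DOX1X over PBS, DOX4X over DOX1X) from the edgeR fit, with bars of 1 SE. Slit2 and Robo1 lie left of 0 in all 3 comparisons, while Robo4 lies at 1.00, -0.73 and 1.73.

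The second comparison, DOX1X against PBS, asks the same of a single injection and shares its PBS libraries with the first, so its values are not independent of the choice of members. DOX1X and PBS also differ in number of intravenous injections, 1 against 4, which cannot be told apart from the drug. No member was called, as was the case for all but 0.00561% of the genes. Slit2 was at -0.65 (SE 0.19; edgeR's unadjusted p = 0.0052, adjusted p = 0.59) and was below the PBS mean in 3 of 3 DOX1X libraries. Robo1 was at -0.30 (SE 0.10; edgeR's unadjusted p = 0.012, adjusted p = 0.60), with all 3 DOX1X libraries below all 4 PBS libraries. These 2 genes were the members with an unadjusted p under 0.05, against 7.16% of all genes tested, and Robo1 was the member whose groups did not overlap with DOX1X lower, against 3.82%. None was higher in DOX1X without overlap, against 3.18%.

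Slit3 was at -0.26 (SE 0.15, edgeR adjusted p = 0.74), Robo2 at -0.12 (SE 0.32, edgeR adjusted p = 0.94) and Robo4 at -0.73 (SE 0.59, edgeR adjusted p = 0.79). Robo3, at 0.66 (SE 1.03, edgeR adjusted p = 0.90), had an error larger than its difference. Without PBS 4 the ligands stood farther from 0, with Slit2 at -0.80 (SE 0.14, edgeR adjusted p = 0.14) and Slit3 at -0.40 (SE 0.09, edgeR adjusted p = 0.25), and no member was called. The members with an unadjusted p under 0.05 then numbered 4. No share of all genes is given for that fit, so this count cannot be set against a background. Robo4 was at -1.07 (SE 0.43) without PBS 4, and single libraries moved it over -1.34 (without DOX1X 3) to -0.31 (without PBS 2). Within flow cell 1, which holds DOX1X 1 and 2 and all PBS libraries, Slit2 was at -0.56 (SE 0.23) and Robo1 at -0.31 (SE 0.10).

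The third comparison, DOX4X against DOX1X, sets repeated against single dosing and shares its DOX4X libraries with the first. Again no member was called, against 0.00561% of all genes. Robo1 was at -0.32 (SE 0.10; edgeR's unadjusted p = 0.0078, adjusted p = 0.89), lower in 4 of 4 DOX4X libraries than in any DOX1X library. Slit2 was at -0.40 (SE 0.19; edgeR's unadjusted p = 0.054, adjusted p = 1.00), also without overlap. Both lay below DOX1X without overlap, as did 2.79% of all genes tested.

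Robo4 went the other way, at 1.73 (SE 0.61; edgeR's unadjusted p = 0.016, adjusted p = 0.92), higher in 4 of 4 DOX4X libraries than in any DOX1X library, as were 3.19% of all genes. Robo1 and Robo4 were the members with an unadjusted p under 0.05 here, against 4.36% of all genes. Slit3 was at -0.10 (SE 0.15), Robo2 at -0.29 (SE 0.32) and Robo3 at -0.11 (SE 1.01), each smaller than its error. Within flow cell 2, where DOX1X has the single library DOX1X 3, Robo1 was at -0.34 (SE 0.17), Slit2 at -0.18 (SE 0.17), Slit3 at 0.045 (SE 0.12) and Robo4 at 0.97 (SE 0.39). The spread of that lone DOX1X library was assumed to be like that of DOX4X. With the replicate number as a block, Slit2 was at -0.27 (SE 0.14) and Robo1 at -0.36 (SE 0.11), and 2 genes in the table were called against 1 without the block, neither count including a member. That block was fitted over all 11 libraries, so the same-numbered PBS libraries, not taken as paired, also entered it.

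The balance of the ligand genes was followed with the number of Slit2 reads per Slit3 read, a measure chosen after the levels had been seen. It was 0.664, 0.587, 0.587 and 0.445 in DOX4X, 0.701, 0.730 and 0.664 in DOX1X, and 0.900, 0.833, 1.03 and 0.893 in PBS. The ratio needs no scaling between libraries, and in it PBS 4 stood among the other PBS libraries. Every PBS library was above every doxorubicin library, and DOX4X and DOX1X met at 0.664.

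The mean ratio was 0.571 ± 0.0916 in DOX4X (SD, n = 4), 0.698 ± 0.0331 in DOX1X (n = 3) and 0.915 ± 0.0847 in PBS (n = 4). DOX4X minus PBS was -0.344, given without a test because that contrast chose Slit2. The other differences share its PBS or its DOX4X libraries. Their p-values are therefore not independent of the choice of Slit2, and nothing beyond description is read from them. DOX1X minus PBS was -0.217, with a two-sided exact permutation p of 0.0571, the smallest that the 35 splits of 3 and 4 libraries allow. DOX4X minus DOX1X was -0.128, with a two-sided exact permutation p of 0.114 over unpaired libraries. Over the 3 same-numbered pairs, a check added after the values were seen, the ratio was lower in DOX4X in 3 of 3. The mean difference was -0.0856, with a two-sided exact permutation p of 0.25 from sign flips, the smallest that 3 pairs allow. That p assumes that the numbers pair the mice, which the labels do not state. Within flow cell 1 DOX1X minus PBS was -0.199, and within flow cell 2 DOX4X minus DOX1X was -0.0932. Without DOX4X 4, the library with the lowest ratio and the one with no same-numbered DOX1X library, DOX4X minus DOX1X was also -0.0856.

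**Figure D3:**
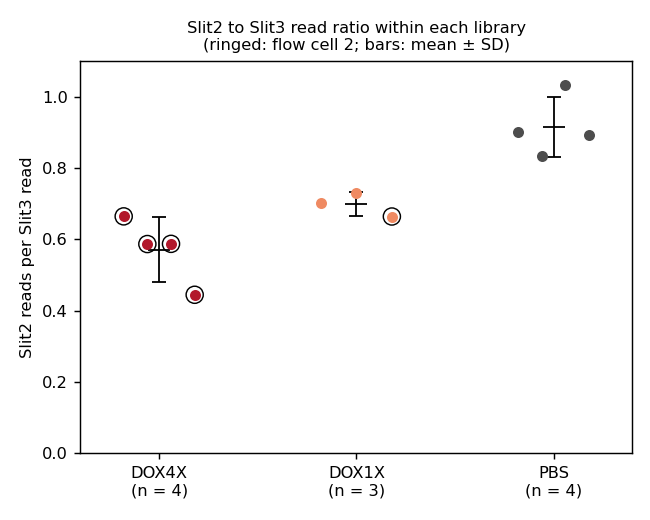
Slit2 reads per Slit3 read in each library, on a linear axis starting at 0, with DOX4X left, DOX1X in the middle and PBS right; points are single mice, horizontal marks are means, vertical lines are SD and ringed points were on flow cell 2. The lowest PBS library is at 0.833 and the highest doxorubicin library at 0.730.

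Over the 11 libraries Slit2 and Slit3 moved together, with a Pearson r of log2 CPM of 0.82, and of 0.80 after the group means were taken out. Slit2 and Robo1 had an r of 0.79 over the libraries and of -0.08 after the group means were taken out. Their likeness thus lay between the groups and not between mice of one group. The choice of the family built in part of that, since both genes had passed the test as lower in DOX4X than in PBS. Slit3 and Robo1 had 0.62 and 0.33, and Robo1 and Robo2 had 0.52 and 0.39. With Robo2, Slit2 had 0.43 and 0.18 and Slit3 had 0.45 and 0.31. With Robo4, Slit3 had 0.15 and 0.63, Slit2 -0.23 and 0.44, Robo1 -0.45 and 0.10, and Robo2 -0.12 and 0.20. The ligand genes thus went with Robo4 more closely after the group means were taken out than before. These are descriptions, since the values of a library share its scaling and depth and the groups differ in level.

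The summed level of 7 osteoblast markers was 9087 to 11756 CPM in DOX4X, 12228 to 16127 in DOX1X and 13761 to 22211 in PBS. The same order of groups was thus seen for this sum and for Slit2, although the DOX1X and PBS sums overlapped. Gene by gene, 6 of the 7 were below 0 in each comparison. Their medians were -0.63 for DOX4X over PBS, -0.20 for DOX1X over PBS and -0.49 for DOX4X over DOX1X. Each of the 7 was detected in every group. Spp1, the osteopontin gene, averaged 2662 ± 713 CPM in DOX4X, 4007 ± 104 in DOX1X and 7971 ± 1736 in PBS. The sum leans on genes as high as this one, so its order in part restates Spp1. Spp1 was also among the genes found most like Slit2 over the libraries. The part of these markers in the Slit2 result was not tested. Markers of blood cells moved the opposite way, with a mean score over 33 markers of 0.29 ± 0.60 in DOX4X, 0.42 ± 0.65 in DOX1X and -0.61 ± 0.48 in PBS. The score is the mean log2 CPM of the markers, each centred on its mean over the libraries. With that score in the fit, the DOX4X and PBS difference was -1.23 (SE 0.21) for Slit2 and -0.55 (SE 0.12) for Robo1, with 0 members called.

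Robo4 followed the endothelial markers from library to library. The score of 12 endothelial markers, among them the cadherin gene Cdh5, Pecam1 and the VEGF receptor gene Kdr, was 0.75 ± 0.37 in DOX4X, -0.65 ± 0.53 in DOX1X and -0.26 ± 0.93 in PBS. Their summed level was 321 to 598 CPM in DOX4X, 105 to 208 in DOX1X and 68.8 to 369 in PBS, and each of the 12 was detected in every group. Cdh5 alone averaged 25.5 ± 7.44 CPM in DOX4X, 7.49 ± 3.60 in DOX1X and 13.0 ± 6.72 in PBS. The order of the groups was that of Robo4.

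The log2 level of Robo4 and this score had a Pearson r of 0.994 and a Spearman rho of 1 over the 11 libraries, each with a permutation p of 1e-05, the smallest that 100000 resamples can give. Without PBS 4 and DOX1X 1, the libraries farthest from the median score, r was 0.990 (n = 9). It was 0.992 after group means were taken out and 0.995 within flow cell 1 (n = 6). Over the 5 libraries of flow cell 2 it was 0.993, a value given as a description at that number. This was the one relation tested, and Robo1 and Robo2 had r of -0.47 and -0.11 with the same score, given without a test. With the score in the fit, Robo4 differed by -0.15 (SE 0.13) between DOX4X and PBS, by 0.11 (SE 0.12) between DOX1X and PBS and by -0.26 (SE 0.16) between DOX4X and DOX1X. With it, Slit2 was at -1.21 (SE 0.21) and Robo1 at -0.64 (SE 0.12) between DOX4X and PBS.

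**Figure D4:**
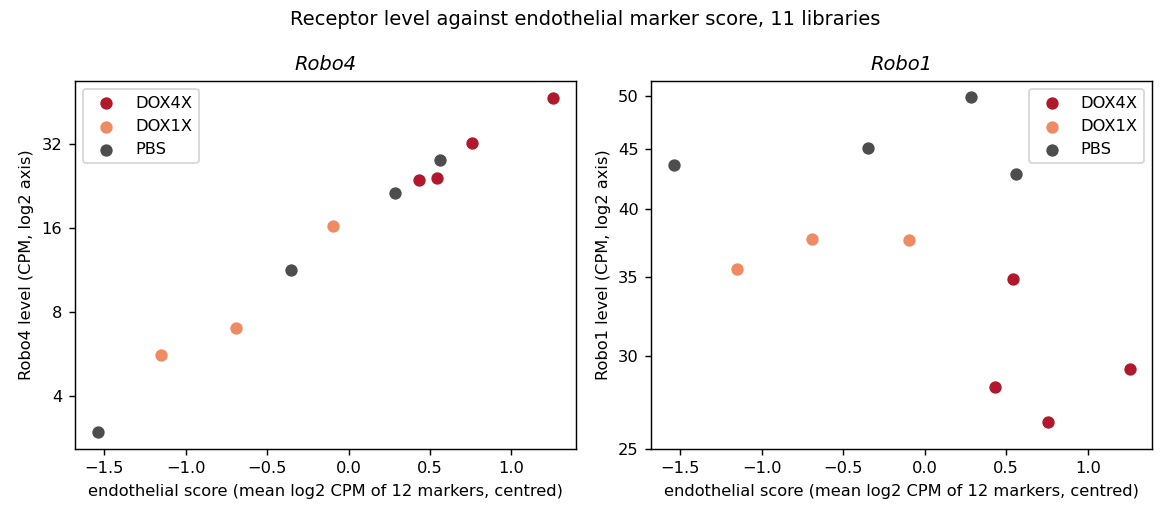
Level of Robo4 (left) and Robo1 (right) in CPM on log2 axes against the mean score of 12 endothelial markers (centred log2 CPM), 1 point per library, coloured by group with DOX4X, DOX1X and PBS in the legend. Robo4 rises along one line through all groups with a Pearson r of 0.994, and Robo1 has an r of -0.47.

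Beyond the ligands and receptors, 52 genes of the pathway were listed by role, of which 51 were in the table and 49 were tested. The list was drawn up with earlier results of these data known, so its counts, shares and p-values below are descriptions. Nell2 was not analysed here, and Dcc and Flrt1 did not pass the filter on low counts. Between DOX4X and PBS 38 of the 49 had a difference below 0, against 47.8% of all genes tested, and their median was -0.14 against 0.014 for all genes. Of the 49, 1 was called lower and 0 higher, and 13 were lower and 0 higher at an unadjusted p under 0.05, against 7.85% and 6% of all genes. Without PBS 4 the number at an unadjusted p under 0.05 was 18, with no share of all genes given for that fit to set it against. The list of heparan sulfate genes, whose sugar chains hold Slit and Robo together, also held Dag1, the dystroglycan gene, whose protein binds Slit. It had 11 of 12 below 0, 8 of 12 lower at an unadjusted p under 0.05, and a median of -0.26. The 5 GTPase-activating proteins of the Robo tail had 4 above 0 and a median of 0.056. Of the 16 adaptors and actin regulators 13 were below 0 and 2 were lower at an unadjusted p under 0.05. All 8 genes of Slit and Robo processing and turnover were below 0, 2 of them at an unadjusted p under 0.05.

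Sdc3, which encodes the heparan sulfate proteoglycan syndecan-3, was the pathway gene past the threshold between DOX4X and PBS. It had 248, 295, 259 and 371 CPM in DOX4X, 350, 367 and 392 CPM in DOX1X, and 529, 591, 530 and 431 CPM in PBS. All DOX4X libraries were below all PBS libraries, and the difference was -0.83 (SE 0.13, edgeR adjusted p = 0.048). Its call was lost with the replicate block, with flow cell as a term, with only the compared groups and with either marker score in the fit. It was kept without PBS 4, DOX1X 3 or DOX4X 4 and lost without any one of the other 8 libraries.

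Flrt2, which encodes a membrane protein that binds Unc5 receptors and latrophilins, had 88.2, 82.2, 58.8 and 63.0 CPM in DOX4X, 81.4, 91.0 and 94.3 CPM in DOX1X, and 143, 105, 151 and 132 CPM in PBS. It differed by -0.86 between DOX4X and PBS (SE 0.14, edgeR adjusted p = 0.051) and did not pass. Glce, an enzyme that epimerises heparan sulfate, differed by -0.35 (SE 0.09, edgeR adjusted p = 0.16). Gpc1, the glypican-1 gene, differed by -0.48 (SE 0.14, edgeR adjusted p = 0.17). Ndst1, an enzyme that sulfates the chains, differed by -0.30 (SE 0.09, edgeR adjusted p = 0.18).

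Between DOX1X and PBS 33 of 49 pathway genes were below 0, against 48.8% of all genes, with a median of -0.072 against 0.0057. None was called, and 8 were lower and 0 higher at an unadjusted p under 0.05, against 3.74% and 3.42% of all genes. Without PBS 4 the number at an unadjusted p under 0.05 was 10, again with no share of all genes for that fit. The heparan sulfate genes had 9 of 12 below 0 and 5 lower at an unadjusted p under 0.05, with a median of -0.18. Glce had the smallest p, at 35.9, 39.6 and 42.9 CPM in DOX1X against 54.3, 46.2, 61.1 and 49.6 CPM in PBS, a difference of -0.42 (SE 0.10, edgeR adjusted p = 0.52). Flrt2 was at -0.58 (SE 0.16, edgeR adjusted p = 0.58), Sdc3 at -0.49 (SE 0.14, edgeR adjusted p = 0.58) and Ndfip1, an adaptor of ubiquitin ligases that has been tied to Robo1 turnover, at -0.19 (SE 0.07, edgeR adjusted p = 0.61).

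Between DOX4X and DOX1X 36 of 49 were below 0, against 50.3% of all genes, with a median of -0.056 against -0.0011. None was called, and 4 were lower and 1 higher at an unadjusted p under 0.05, against 2.13% and 2.23%. The heparan sulfate genes had 11 of 12 below 0 and 3 lower at an unadjusted p under 0.05. Gpc1 had 265, 318, 294 and 367 CPM in DOX4X against 473, 501 and 385 CPM in DOX1X, a difference of -0.54 (SE 0.15, edgeR adjusted p = 0.89) without overlap. Hs2st1, a heparan sulfate sulfotransferase, was at -0.22 (SE 0.07, edgeR adjusted p = 0.89) and Sdc3 at -0.33 (SE 0.14, edgeR adjusted p = 1.00). Flrt3, a relative of Flrt2 that can bind Robo1, was the gene on the higher side at 1.01 (SE 0.38, edgeR adjusted p = 1.00), and was at -0.083 with the endothelial score in the fit.

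**Figure D5:**
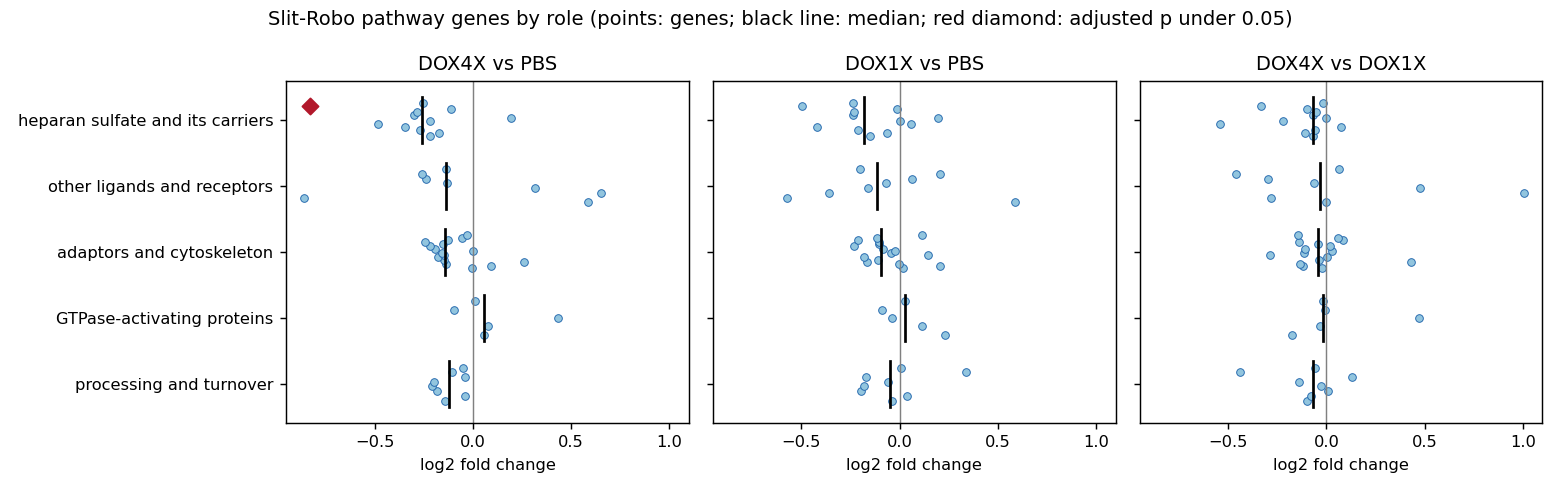
Log2 fold changes of the 49 tested pathway genes by role, in each of the 3 comparisons, 1 point per gene, with the median of each role as a black line, a grey line at 0 and a red diamond for a gene past the threshold. The heparan sulfate genes have a median of -0.26 between DOX4X and PBS, and Sdc3 at -0.83 is the gene past the threshold.

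The genes most like the members were sought among 10736 genes with a mean of at least 5 CPM, by Pearson r of log2 CPM over the 11 libraries. For Slit2 they were Cdh2, Spp1, Kcnma1, Ctnnb1 and Cd276, each with an r of 0.94, and after group means were taken out they were Smad5 at 0.97, Fgf2 at 0.93, Cyth4 at 0.92, Acsf2 at 0.91 and Ildr2 at 0.91. For Slit3 they were Acp2 at 0.97, Traf7 at 0.96, Lclat1 at 0.94, Rrbp1 at 0.94 and Chpf2 at 0.93, and after group means were taken out Smpd3 at 0.97, Gpr107 at 0.96, Acp2 at 0.95, Rtl8c at 0.95 and Fndc10 at 0.94. For Robo1 they were Ctsb at 0.95, Sdc3 at 0.94, Prkacb at 0.94, Col6a1 at 0.93 and Pitx1 at 0.93, and after group means were taken out Tlr3 at 0.93, P3h3 at 0.92, Pcdhb15 at 0.91, Rhobtb3 at 0.91 and Sqstm1 at 0.90. The 3 lists over the libraries shared no gene, and Sdc3 was the pathway gene among them. Some of the values after group means were taken out rested on 1 library: without PBS 4 Acsf2 was at 0.76 and Ildr2 at 0.78 with Slit2, and Acp2 at 0.83 and Rtl8c at 0.84 with Slit3, and without DOX4X 4 Sqstm1 was at 0.75 with Robo1. With so many genes and 11 libraries, high values of r occur in any such search, and they are given as descriptions only.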

How the data were processed

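RNA of sorted tdTomato+ marrow stromal cells was measured by SMART-Seq v4 Plus in 11 libraries, 1 per mouse, labelled as biological replicates. The deposited values are raw counts per gene, made by the authors, with no normalization. The submitters' processing notes list STAR 2.7.9a and featureCounts 2.0.1 with the GRCm39 build, besides Trim Galore 0.6.6 for reads and SAMtools 1.17. Neither annotation nor strand setting is stated in these sources.

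From the counts, CPM with TMM scaling was computed for each library. Differences came from edgeR 4.0.16 in R 4.3.3 (filterByExpr, TMM, quasi-likelihood test, two-sided, group means over all 11 libraries), with Benjamini-Hochberg adjustment over 17838 genes and a threshold of 0.05. The SE is the log2 fold change divided by the root of F. The fit was also run on simulated data, with no outcome given here, so nothing is read from that run. The alternatives used DESeq2 1.42.0, limma 3.58.1 (voom with quality weights), other scalings and filters, flow cell, marker scores, a replicate block and each library left out. Correlations used log2 CPM with a prior count of 2.

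The members and all lists were chosen with earlier results of these data known. All 7 members are named; of the pathway list, genes past the threshold and the 4 with the smallest p in each comparison that did not pass; of the likeness search, the 5 with the highest r.

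Whether replicate numbers pair the libraries was checked by the correlation of same-numbered deviations from group means. Between DOX4X and DOX1X all 3 pairs exceeded 0.1, at 0.13 to 0.43, so the numbers were treated as pairing these groups, from the data and not from the labels. Differently numbered libraries of these groups spanned -0.47 to 0.40, and most lay below 0. DOX4X 1 had 0.40 with DOX1X 2 against 0.13 with DOX1X 1, and DOX4X 3 and DOX1X 3 also shared flow cell 2. The rule therefore cannot show that the mice were paired. Other comparisons had pairs at -0.18 to 0.10 and -0.09 to 0.09 and were not taken as paired. The replicate block nevertheless spanned all groups, so its values for the PBS comparisons assume a pairing that these correlations do not show. No 2 libraries were identical.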

Additional observations from a re-analysis of the deposited data

Results flagged for a closer look

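Robo3 in DOX4X stood out for one library far from the others. DOX4X 1 had 1.07 CPM, from 39 counts, and the other 3 DOX4X libraries had 0.180 to 0.218 CPM, so the gap took up 0.958 of the range of the group, above Dixon's critical value for 4 libraries. It was 1 such case among 36 groups of 4 libraries examined, and chance alone gives about 1 in 20. Robo3 was near the limit of detection throughout.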

How the results depend on the processing

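Slit2 and Robo1 kept their sign under every alternative in all 3 comparisons, and no member was called under any of them in DOX1X against PBS or DOX4X against DOX1X. For DOX4X against PBS that sign was built in by the choice of the family, and the other comparisons share libraries with it. For DOX4X against PBS, 26 genes were called, against 590 with DESeq2 (178 higher, 412 lower), 56 with limma-voom, 10 with the replicate block, 7 with the endothelial score, 6 with flow cell as a term, 2 with the blood-cell score, 1 with only the compared groups and 0 to 80 with single libraries left out (0 without DOX4X 1, 2 or 3, and 80 without PBS 4). Members called numbered 2, against 1 with the replicate block (Slit2), 0 with only the compared groups, flow cell as a term or either score, and 0 to 3 with single libraries left out. Pathway genes called numbered 1, against 6 with DESeq2, 2 with limma-voom, 2 with no low-count filter, 0 with the replicate block, only the compared groups, flow cell as a term or either score, and 0 to 2 with single libraries left out. For DOX1X against PBS 1 gene was called, against 49 with DESeq2, 6 with the replicate block, 5 within flow cell 1 and 1 to 2 with single libraries left out. For DOX4X against DOX1X 1 gene was called, against 27 with DESeq2, 2 with the replicate block, 0 with the endothelial score and 1 to 2 with single libraries left out. The block changed no other member call. Signs turned as follows, and the cause was not tested. For DOX4X against PBS with flow cell as a term, Robo2 was 0.28, Robo3 -0.36 and Robo4 -0.36; with the endothelial score Robo3 was -0.20 and Robo4 -0.15; Robo3 was -0.49 to 1.53 with single libraries left out. For DOX1X against PBS Robo2 was 0.074 with flow cell as a term, 0.072 within flow cell 1 and -0.33 to 0.074 with single libraries left out, Robo3 was -0.16 with limma-voom and Robo4 0.11 with the endothelial score. For DOX4X against DOX1X Slit3 was 0.043 and Robo2 0.20 with flow cell as a term, 0.045 and 0.21 within flow cell 2; Robo3 was 0.92 with limma-voom and -1.16 to 0.26 with single libraries left out; Robo4 was -0.26 and Flrt3 -0.083 with the endothelial score. The difference in Slit2 reads per Slit3 read for DOX4X against DOX1X was -0.0932 within flow cell 2, -0.0856 over same-numbered pairs (added after seeing the data) and -0.159 to -0.0856 with single libraries left out. Slit1 and Robo3 were the members near the limit of detection, and whether depth limited other genes was not tested.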
